A study of Homo sapiens with 12 samples.

Results

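Unfolded protein and ATF4 stress response genes were compared between cells with CD44 (CD44 WT) and without it (CD44 KO) in a pair of triple negative breast cancer (TNBC) cell lines, Hs578T and MDA-MB-231. The 45 genes were listed by symbol and taken from the count table through their Ensembl identifiers, and the list was drawn up with earlier results of these data known. They form 2 arms. The ER arm holds 22 genes of the endoplasmic reticulum (ER), with its stress sensors, chaperones and degradation factors, and the ATF4 arm holds 23 genes around the transcription factor ATF4, with its partners and its targets of amino acid synthesis and transport. All 45 genes were found among the 58381 genes of the table, and all 45 were among the 15836 genes with enough counts to be tested.

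RNA was sequenced from 4 groups of 3 libraries each, Hs578T CD44 WT, Hs578T CD44 KO, MDA-MB-231 CD44 WT and MDA-MB-231 CD44 KO. Per the study's methods, cells of all 4 groups carried a doxycycline-inducible Cas9 lentivirus with puromycin resistance. KO cells received guide RNAs against exons of CD44, whereas the control plates received transfection reagent alone. Cells were then sorted as CD29+ CD44+ for WT and as CD29+ CD44- for KO, so that each group was a sorted population and not a clone, and they were starved in low serum before RNA was taken. The libraries of a group were not stated to come from separate cultures, and p-values therefore measure only the spread between these libraries.

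Cells answer misfolded protein in the ER through 3 sensors, IRE1 (gene ERN1), ATF6 and PERK (gene EIF2AK3). IRE1 splices the XBP1 transcript, and spliced XBP1 and cleaved ATF6 raise chaperones and degradation factors of the ER. PERK phosphorylates the translation factor eIF2 alpha, as do kinases that sense amino acid shortage, heme or double-stranded RNA, and this allows ATF4 to be translated. ATF4 then raises genes of amino acid synthesis and transport, and, under lasting stress, the factor CHOP (gene DDIT3). The ATF4 arm can therefore respond through other kinases than PERK. Splicing of XBP1, cleavage of ATF6 and translation of ATF4 are not visible in counts per gene.

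The elements through which these factors are known to act were sought in RefSeq promoters (GRCh38.p14) of 300 bases, from 250 before to 50 after each start, on both strands. Promoters were found for 39 of the 45 genes, 21 of the ER arm and 18 of the ATF4 arm, in 53 entries. The entries of VEGFA, PDIA3, PSPH, NUPR1, ALDH1L2 and SHMT2 were missing. The ER stress element (ERSE), CCAAT and CCACG with 9 bases between them, was present in 7 genes of the ER arm and in 0 of the ATF4 arm, and in 0.0769% of all 35116 promoters. These shares count promoter entries and not genes. The arms were listed from known targets of ATF6, XBP1 and ATF4, so the presence of their elements is partly built into the lists. The 7 genes were HSPA5, HSP90B1, CALR, CANX, PDIA6, CRELD2 and XBP1. They are shown because their promoters match this element, and the match alone selected them. They are not a list of all ATF6 targets in the arm. Each line is written 5′ to 3′ on the strand that carries the element, with the constant parts of the element in capitals.
HSPA5, chr9:125241385-125241415, minus strand: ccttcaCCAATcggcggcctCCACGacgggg
HSP90B1, chr12:103930210-103930240, plus strand: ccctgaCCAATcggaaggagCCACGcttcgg
HSP90B1, chr12:103930315-103930345, minus strand: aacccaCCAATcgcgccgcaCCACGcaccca
CALR, chr19:12938378-12938408, minus strand: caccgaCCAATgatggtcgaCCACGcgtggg
CANX, chr5:179698772-179698802, plus strand: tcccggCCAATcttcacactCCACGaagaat
PDIA6, chr2:10812847-10812877, minus strand: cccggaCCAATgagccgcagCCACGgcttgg
CRELD2, chr22:49918548-49918578, minus strand: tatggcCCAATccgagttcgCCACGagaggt
XBP1, chr22:28800597-28800627, minus strand: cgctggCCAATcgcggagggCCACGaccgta

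The ATF4 arm was searched for the C/EBP-ATF response element (CARE), which is TGATG and AA with 1 base between them, and for the cAMP response element (CRE), TGACGTCA. CARE was present in 4 genes of the ATF4 arm, ASNS, CHAC1, SLC1A5 and SLC7A1, in 1 gene of the ER arm, HERPUD1, and in 3.62% of all promoters. CRE was present in PPP1R15A, in 0 genes of the ER arm and in 1.85% of all promoters. The XBP1 element (UPRE), TGACGTGG, was present in HYOU1, in 0 genes of the ATF4 arm and in 0.729% of all promoters. Only the elements named here were searched, and other forms of the ER stress element were not. The matches before the start are shown so that genes with and without a changed level can be set beside their elements. A match describes letters only, and the absence of a match says nothing of binding outside these windows.
ASNS, chr7:97872463-97872482, minus strand, CARE: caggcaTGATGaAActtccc
CHAC1, chr15:40953256-40953275, minus strand, CARE: caggagTGATGcAAcggcag
SLC1A5, chr19:46784898-46784917, minus strand, CARE: agtggcTGATGcAAgctgtc
HERPUD1, chr16:56931960-56931979, minus strand, CARE: acgggcTGATGcAAcccgcc
PPP1R15A, chr19:48872357-48872376, plus strand, CRE: tcttcgTGACGTCAgcacgc
HYOU1, chr11:119057380-119057399, minus strand, UPRE: gccccgTGACGTGGtccaat

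Levels are given in CPM, the counts of a gene relative to the scaled total of its library, and fold changes as the log2 ratio of KO to WT with their standard error (SE). Genes with an adjusted p no higher than 0.01 were called, by the quasi-likelihood test of edgeR and Benjamini-Hochberg adjustment over all genes tested. Total counts ranged from 10257586 to 19725543 per library. CD44, the targeted gene, fell from 507 to 27.3 CPM in Hs578T (log2 fold change -4.22) and in MDA-MB-231 from 362 to 34.2 CPM (-3.40), with 3 libraries per group. The mesenchymal markers VIM, FN1, ZEB1, SNAI2 and CDH2 summed to between 5100 and 10320 CPM, mostly from VIM and, in Hs578T, FN1. CDH2 was at 128 to 174.5 CPM in Hs578T and below 1 CPM in every MDA-MB-231 library. VIM rose past the threshold in CD44 KO of both lines. The 7 luminal and hormone receptor markers summed to 84.5 to 118 CPM, mostly from ERBB2 (57.4 to 101 CPM). In MDA-MB-231, EPCAM was at 13.7 to 22.2 CPM. FOXA1 and GATA3 also passed there with a rise, and reached 9.43 and 7.54 CPM at most. Of the leukocyte markers PTPRC, CD14, ITGAM and CD3E, PTPRC was called higher in Hs578T CD44 KO (0.369 to 3.78 CPM), and the others stayed below 1 CPM in every library. Of 4 endothelial markers, KDR was called higher in CD44 KO of both lines, and the list summed to 6.17 to 14.3 CPM in CD44 WT and to 14.1 to 16.96 CPM in CD44 KO. The part of these marker genes in the results was not tested. A pair of MDA-MB-231 libraries stood apart in the genes described here, the CD44 WT library without a replicate number (number 3 in its name) and CD44 KO replicate 2 (number 4, the deepest of all libraries).

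Genes of the ATF4 arm were higher in Hs578T CD44 KO cells. Of the 23 genes, 7 were called higher and 0 lower, where 3.64% of all genes tested were called higher and 3.86% lower. The called genes were the stress factor DDIT3, the stress cofactor NUPR1, the phosphatase subunit PPP1R15A, the mitochondrial folate enzymes SHMT2 and ALDH1L2, the leucine carrier SLC7A5 and the growth factor VEGFA, with rises of 1.45-fold for PPP1R15A to 2.18-fold for DDIT3. Fold changes were above 0 for 22 of the 23 genes, with a median log2 fold change of 0.46, beside -0.0016 over all genes tested. In 18 of the 23 genes every CD44 KO library lay above every CD44 WT library and in 0 below, where 18.7% and 18.6% of all genes tested did so. A fit of Hs578T alone called 15 of the 23 genes higher and 0 lower, where 5.23% of 14655 genes were called higher and 5.18% lower.

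**Figure D1:**
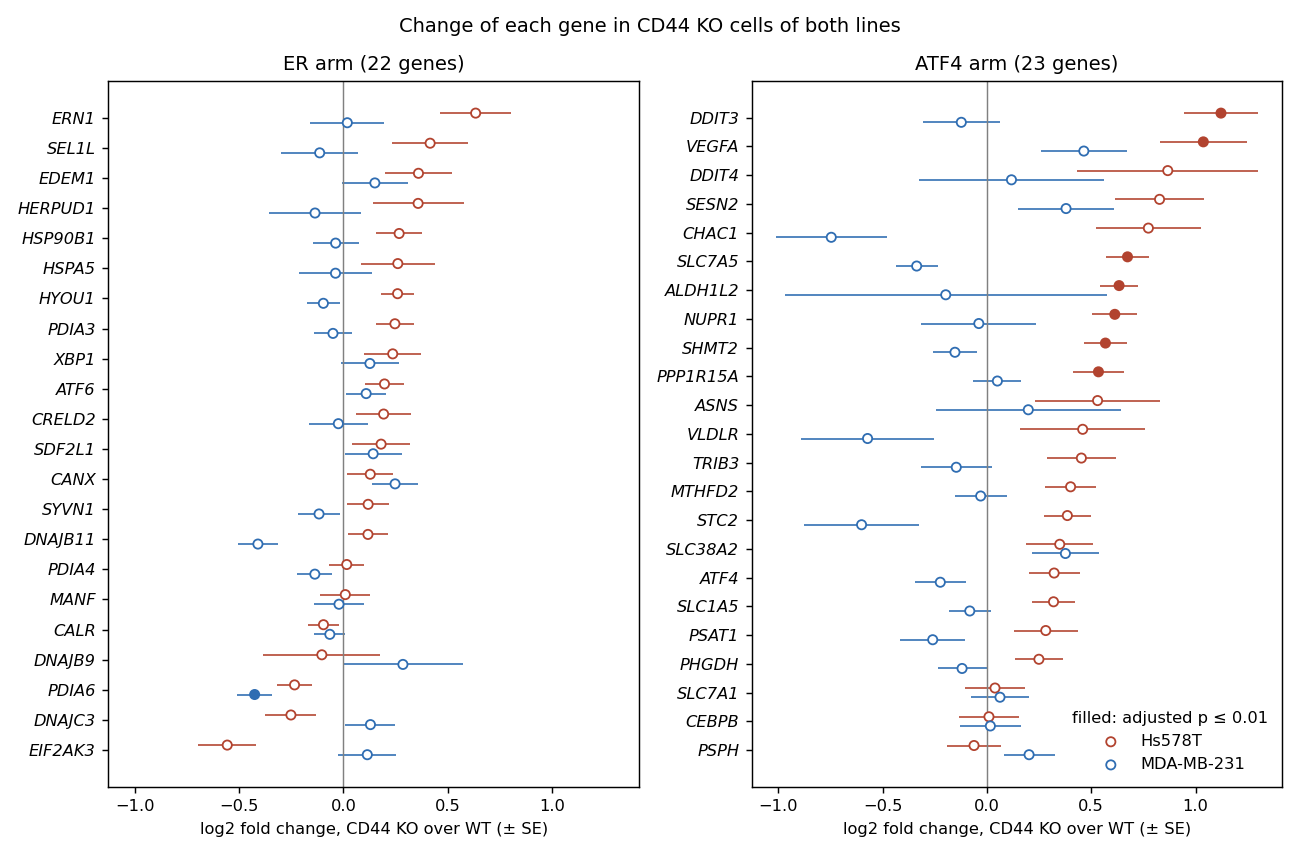
Log2 ratio of KO to WT for each gene of the ER arm (left) and the ATF4 arm (right), with the standard error as a bar, in Hs578T (red) and MDA-MB-231 (blue). Filled points passed an adjusted p of 0.01, which 7 ATF4 arm genes did in Hs578T and 1 ER arm gene, PDIA6, in MDA-MB-231.

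Among the transcription factors, DDIT3 encodes CHOP, which promotes cell death under lasting stress (chr12:57516588-57521737, minus strand), and 8.03% of its exonic bases are shared with another annotated gene. DDIT3 was at 36.9, 34.3 and 31.6 CPM in the Hs578T CD44 WT libraries and at 74.5, 88.2 and 60.7 CPM in CD44 KO, in the order of the replicate numbers. All CD44 KO libraries lay above all CD44 WT libraries, with a log2 fold change of 1.12 (SE 0.175, adjusted p = 0.000475). NUPR1, a small stress-induced chromatin protein (chr16:28532708-28539174, minus strand), was at 60.9, 58.8 and 54.25 CPM in CD44 WT and at 98.8, 87.9 and 79.4 CPM in CD44 KO. The groups did not overlap, and the log2 fold change was 0.61 (SE 0.107, adjusted p = 0.00117). ATF4 itself was at 374, 316 and 372 CPM in CD44 WT and at 485, 452 and 389 CPM in CD44 KO. These groups did not overlap either, but the log2 fold change of 0.32 (SE 0.122, adjusted p = 0.0943) did not pass. The fit of Hs578T alone gave ATF4 an SE of 0.0931 and an adjusted p of 0.0311 by the same edgeR test, still above the threshold. CEBPB, a partner of ATF4, had a log2 fold change of 0.01 (SE 0.1445).

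Of the regulators that limit the response, PPP1R15A (GADD34), which directs the removal of phosphate from eIF2 alpha (chr19:48872392-48876057, plus strand), was called. It was at 32.0, 36.03 and 31.65 CPM in CD44 WT and at 51.4, 52.4 and 40.3 CPM in CD44 KO. The log2 fold change was 0.53 (SE 0.123, adjusted p = 0.00806), close to the threshold. TRIB3, a pseudokinase that binds ATF4, CHAC1, which degrades glutathione, and the mTORC1 inhibitors SESN2 and DDIT4 had log2 fold changes of 0.45, 0.77, 0.83 and 0.87, and none of these 4 passed. Their adjusted p values were 0.0826, 0.0515, 0.0152 and 0.214 in the same test, although all CD44 KO libraries of each gene lay above all CD44 WT libraries. DDIT4 was at 419 to 469 CPM in CD44 WT and at 755 to 868 CPM in CD44 KO, and its SE of 0.434 rests on a spread shared with the MDA-MB-231 libraries, where it ranged from 31.3 to 210 CPM. In the fit of Hs578T alone, TRIB3, CHAC1, SESN2 and DDIT4 were all called higher.

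Among the amino acid and folate enzymes, 2 enzymes of the mitochondria were called. SHMT2 converts serine to glycine in mitochondria (chr12:57229327-57234935, plus strand). SHMT2 was at 343, 364 and 372 CPM in CD44 WT and at 572, 498 and 529 CPM in CD44 KO, with no overlap and a log2 fold change of 0.57 (SE 0.1045, adjusted p = 0.00181). ALDH1L2 oxidises formyl-tetrahydrofolate in mitochondria (chr12:105019784-105084577, minus strand). It was at 132, 127 and 126 CPM in CD44 WT and at 201.5, 202.5 and 193 CPM in CD44 KO, and rose by a log2 fold change of 0.63 (SE 0.09185, adjusted p = 0.000246). MTHFD2, which acts between these enzymes in the mitochondrial folate pathway, had a log2 fold change of 0.40 (SE 0.123, adjusted p = 0.0411) and did not pass. The cytosolic serine synthesis enzymes PHGDH, PSAT1 and PSPH had log2 fold changes of 0.25, 0.28 and -0.06, and 0 of the 3 passed. That the mitochondrial enzymes changed more than the serine synthesis enzymes was not tested. Over the 75 other tested genes within 5 Mb of ALDH1L2 the median log2 fold change in Hs578T was 0.18, with 21 below 0. The part of this region was not tested.

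ASNS, the asparagine synthetase and a standard ATF4 target, could not be measured well. It was at 3.745, 2.88 and 2.79 CPM in Hs578T CD44 WT and at 3.13, 5.92 and 4.52 CPM in CD44 KO, and the groups overlapped (log2 fold change 0.53, SE 0.298, adjusted p = 0.273). In MDA-MB-231 it was at 0.494 to 1.32 CPM in all 6 libraries. Of its 4455 exonic bases, 44.6% are shared on the same strand with another annotated gene, and fragments that fell on several genes were not counted. Its pseudogene ASNSP1 held 1005 counts over the 12 libraries, beside 379 for ASNS, so that the level of ASNS is uncertain.

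The carriers and secreted proteins held the remaining calls. SLC7A5 (LAT1) imports leucine and other large neutral amino acids (chr16:87830023-87869488, minus strand). SLC7A5 was at 763, 699 and 786.5 CPM in CD44 WT and at 1289, 1145 and 1152 CPM in CD44 KO. All CD44 KO libraries lay far above all CD44 WT libraries, with a log2 fold change of 0.67 (SE 0.101, adjusted p = 0.000327). The glutamine carriers SLC1A5 and SLC38A2 had log2 fold changes of 0.32 and 0.35, and the arginine carrier SLC7A1 one of 0.04, without passing. VEGFA, which drives vessel growth and is raised by ATF4 as well as by hypoxia (chr6:43770184-43786487, plus strand), was at 150, 159 and 153 CPM in CD44 WT and at 322, 316 and 309 CPM in CD44 KO. All CD44 KO libraries lay above all CD44 WT libraries by a wide margin, with a log2 fold change of 1.04 (SE 0.207, adjusted p = 0.00326). The lipoprotein receptor VLDLR and the secreted stanniocalcin STC2 had log2 fold changes of 0.46 and 0.39 and did not pass.

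**Figure D2:**
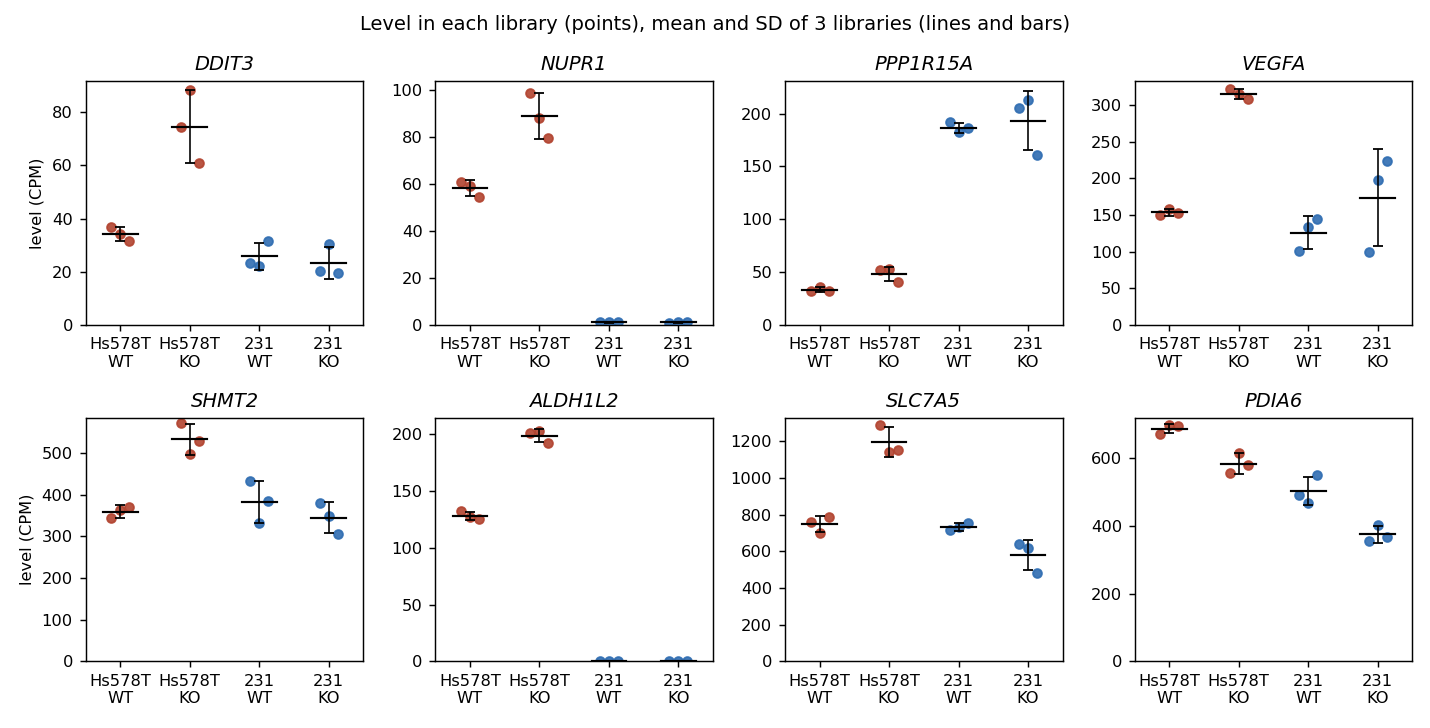
Level in CPM of the 8 called genes in each library (points), with the mean and SD of the 3 libraries of a group (line and bar), in Hs578T (red) and MDA-MB-231 (blue, written 231). In Hs578T the CD44 KO libraries lie above the CD44 WT libraries for every gene but PDIA6, and in MDA-MB-231 NUPR1 and ALDH1L2 lie near 0 in all libraries.

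The calls of DDIT3, ALDH1L2 and SLC7A5 in Hs578T held under all alternatives run. NUPR1 was lost without Hs578T CD44 KO replicate 1 (adjusted p = 0.0116), SHMT2 without the same library (0.0125) or without CD44 WT replicate 1 (0.0141), VEGFA without any 1 of the 6 Hs578T libraries (0.01003 to 0.0197) and PPP1R15A without 6 of the 12 libraries in turn (0.0124 to 0.0486) and without both MDA-MB-231 libraries that stood apart (0.0109). The arm held 3 called genes without CD44 KO replicate 1, 4 without CD44 WT replicate 1, and 5 to 8 without any other library.

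No gene of the ER arm was called in Hs578T, in either direction, by edgeR, although most of its fold changes were slightly above 0. Unadjusted p values under 0.05 were found for 8 of the 22 genes, 6 higher and 2 lower, and for 27.4% of all genes tested. DESeq2 called 2 genes higher, HYOU1 and ERN1, and 1 lower, EIF2AK3, where it called 4.67% of all genes higher and 5.14% lower. Fold changes were above 0 for 17 of the 22 genes, with a median log2 fold change of 0.19. In 12 genes every CD44 KO library lay above every CD44 WT library, and in 4 genes, CALR, DNAJC3, PDIA6 and EIF2AK3, below, where 18.7% and 18.6% of all genes tested did so. The fit of Hs578T alone called ERN1, SEL1L and HERPUD1 higher and EIF2AK3 lower, where 5.23% of 14655 genes were called higher and 5.18% lower. Leaving out MDA-MB-231 CD44 WT replicate 1 gave 2 genes higher and 1 lower, and leaving out the MDA-MB-231 CD44 WT library without a number gave 1 lower.

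The sensors did not move alike. ERN1 (IRE1) was at 17.2 to 18.2 CPM in Hs578T CD44 WT and at 21.3 to 30.3 CPM in CD44 KO, with the largest log2 fold change of the arm, 0.63 (SE 0.172, adjusted p = 0.0214). EIF2AK3 (PERK) was at 34.3 to 39.7 CPM in CD44 WT and at 22.9 to 26.7 CPM in CD44 KO, with the lowest log2 fold change, -0.56 (SE 0.139, adjusted p = 0.0131). The groups of both genes were apart, in opposite directions, and neither passed. Over the 49 other tested genes within 5 Mb of EIF2AK3 the median log2 fold change in Hs578T was -0.25, with 39 below 0. Over the 87 such genes near ERN1 it was 0.11, with 24 below 0. The part of these regions was not tested. ATF6 had a log2 fold change of 0.20 (SE 0.0944). XBP1 was at 121, 122 and 115 CPM in CD44 WT and at 153.5, 136 and 132 CPM in CD44 KO, without overlap, with a log2 fold change of 0.24 (SE 0.136, adjusted p = 0.290). The fit of Hs578T alone gave XBP1 an SE of 0.0714 and an adjusted p of 0.0370 by the same edgeR test, still above the threshold.

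HSPA5 (BiP), the main chaperone of the ER and the usual readout of its stress, was at 1087, 1161 and 1101 CPM in CD44 WT and at 1327, 1425 and 1259 CPM in CD44 KO. All CD44 KO libraries lay above all CD44 WT libraries, by a log2 fold change of 0.26 (SE 0.177, adjusted p = 0.382) that did not pass. This SE rests on a spread shared with the MDA-MB-231 libraries. In the fit of Hs578T alone, by the same edgeR test, HSPA5 had an SE of 0.068 and an adjusted p of 0.0197, still above the threshold. The chaperones HSP90B1 (GRP94) and HYOU1 had log2 fold changes of 0.27 and 0.26, the lectins CANX and CALR 0.13 and -0.10, and the cochaperones DNAJB9, DNAJB11 and DNAJC3 -0.10, 0.12 and -0.25. SDF2L1, MANF and CRELD2, which are small induced proteins of the ER lumen, had 0.18, 0.01 and 0.19. The disulfide isomerases PDIA3, PDIA4 and PDIA6 had 0.25, 0.02 and -0.23. Of the degradation factors, HERPUD1, SEL1L, the ubiquitin ligase SYVN1 and the mannosidase-like EDEM1 had 0.36, 0.42, 0.12 and 0.36. The 7 genes with an ERSE ran from -0.23 for PDIA6 to 0.27 for HSP90B1.

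In MDA-MB-231 a single gene of both arms was called in the fit of all libraries, which took no account of the numbers in their names. With these numbers as a block, the same edgeR test also called CHAC1 and VLDLR lower. The share over all genes was not taken for the fit with this block. Of the 22 ER arm genes, 1 was called lower, PDIA6, and 0 higher, where 2.65% of all genes tested were called lower and 1.97% higher. Of the 23 ATF4 arm genes, 0 were called by edgeR and 0 by DESeq2, and 5 had an unadjusted p under 0.05, 2 higher and 3 lower, where 23.4% of all genes tested did. Without the filter on low counts, CHAC1 (log2 fold change -0.73) and VLDLR (-0.55) were called lower and VEGFA (0.48) and SLC38A2 (0.39) higher. That fit gave small SEs even where libraries varied widely. For DDIT4, at 31.3 to 210 CPM in the MDA-MB-231 libraries, its SE was 0.104, beside 0.562 by DESeq2. Calls made without the filter therefore understate the spread between libraries. The median log2 fold change was -0.03 in the ER arm and -0.08 in the ATF4 arm, beside -0.0096 over all genes tested. All CD44 KO libraries lay above all CD44 WT libraries in 0 of the 45 genes, and below in PDIA6, DNAJB11 and SLC7A5, where 11.8% of all genes tested did the former and 13.7% the latter. A fit of MDA-MB-231 alone called 0 of the 45 genes, where 0.786% of 13609 genes were called higher and 1.53% lower.

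PDIA6, a disulfide isomerase that binds BiP (chr2:10783391-10837977, minus strand), was at 491, 468 and 549 CPM in the MDA-MB-231 CD44 WT libraries and at 355, 402 and 365 CPM in CD44 KO. The groups were apart, with a log2 fold change of -0.43 (SE 0.0839, adjusted p = 0.00445). In Hs578T it was at 669, 695.5 and 693 CPM in CD44 WT and at 556, 615 and 578.5 CPM in CD44 KO, with a log2 fold change of -0.23 (SE 0.0835, adjusted p = 0.0766). Over the 37 other tested genes within 5 Mb of PDIA6 the median change was -0.48 on the log2 scale in MDA-MB-231, with 34 of them below 0, and -0.35 in Hs578T, with 31 below 0, which are the lowest such medians among the 45 genes in either line. The part of this region in the fall of PDIA6 was not tested. The call was lost without Hs578T CD44 KO replicate 3 (adjusted p = 0.0123), without the MDA-MB-231 CD44 WT library lacking a number (0.0171), without MDA-MB-231 CD44 KO replicate 1 (0.0219) or 3 (0.0230) and without both libraries that stood apart (0.0316).

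DDIT3 was at 23.3 and 22.3 CPM in MDA-MB-231 CD44 WT replicates 1 and 3, at 31.5 CPM in the library without a number, and at 20.1, 30.2 and 19.65 CPM in CD44 KO (log2 fold change -0.12, SE 0.184, adjusted p = 0.752). ATF4, in the same order, was at 519, 393 and 476 CPM in CD44 WT and at 382, 452 and 355 CPM in CD44 KO (-0.22, SE 0.122, adjusted p = 0.291). HSPA5 was at 840, 957 and 1251 CPM in CD44 WT and at 733, 1346 and 888 CPM in CD44 KO (-0.04, SE 0.177, adjusted p = 0.959). In HSPA5 and DDIT3 the highest CD44 WT value was that of the library without a number and the highest CD44 KO value that of replicate 2. XBP1 was at 72.7, 78.5 and 107 CPM in CD44 WT and at 81.8, 112 and 87.3 CPM in CD44 KO (0.13, SE 0.138, adjusted p = 0.636).

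Of the genes called in Hs578T, SLC7A5 was at 714, 731 and 754 CPM in MDA-MB-231 CD44 WT and at 639, 618 and 484 CPM in CD44 KO. It was the only one of the 7 whose groups were apart in this line, in the opposite direction to Hs578T, and its log2 fold change of -0.34 (SE 0.101, adjusted p = 0.0469) did not pass. SHMT2 was at 434, 333 and 384 CPM in CD44 WT and at 379, 349 and 306 CPM in CD44 KO. VEGFA was at 101, 133 and 144 CPM in CD44 WT and at 99.2, 198 and 224 CPM in CD44 KO. PPP1R15A was at 182 to 192 CPM in CD44 WT and at 161 to 213 CPM in CD44 KO. For SHMT2, VEGFA and PPP1R15A the groups overlapped and the change did not pass. NUPR1 did not exceed 1.34 CPM and ALDH1L2 not 0.171 CPM in any MDA-MB-231 library, so that at this depth only a large change of these genes could have been detected (log2 fold changes -0.04, SE 0.276, and -0.20, SE 0.772).

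The libraries of a group were farther apart in MDA-MB-231 than in Hs578T. As a level of an arm, the log2 CPM of each gene was taken relative to its mean in the line and averaged over the genes whose mean there reached 5 CPM. For the ATF4 arm in Hs578T, over 22 genes without ASNS, this level was at -0.16, -0.27 and -0.31 in CD44 WT and at 0.31, 0.27 and 0.16 in CD44 KO. In MDA-MB-231, over 19 genes without ASNS, NUPR1, ALDH1L2 and STC2, it was at -0.10, -0.06 and 0.30 in CD44 WT and at -0.24, 0.29 and -0.19 in CD44 KO, where the values of 0.30 and 0.29 are those of the libraries that stood apart. For the ER arm, over all 22 genes, it was at -0.06, -0.05 and -0.08 in CD44 WT and at 0.07, 0.11 and 0.01 in CD44 KO of Hs578T, and from -0.16 to 0.18 in CD44 WT and from -0.19 to 0.18 in CD44 KO of MDA-MB-231. In each group of MDA-MB-231 the level of both arms was highest in the library with a number from 1 to 4 in its name and lowest in that with a number from 9 to 12, and the meaning of these numbers is not given. Between MDA-MB-231 libraries of the same set of numbers, the ATF4 arm was at -0.244 in CD44 KO beside -0.0952 in CD44 WT for 9 to 12, at -0.193 beside -0.0585 for 5 to 8, and at 0.293 beside 0.298 for 1 to 4. Without the 2 libraries that stood apart, 0 ER arm genes were called in MDA-MB-231 and 1 ATF4 arm gene was called lower, while 9 ATF4 arm genes were called higher in Hs578T. The share over all genes was not taken for this fit.

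**Figure D3:**
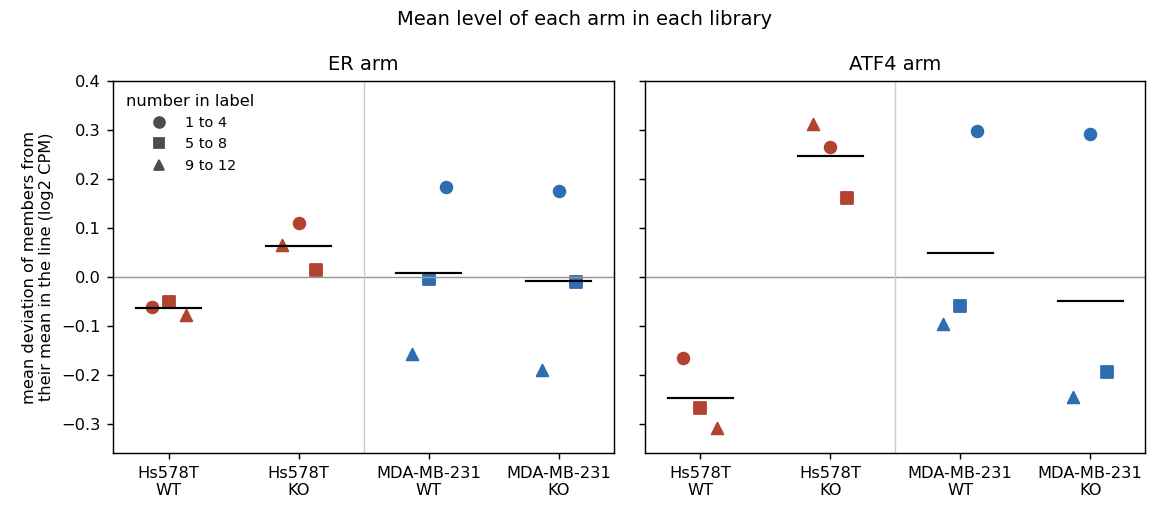
Mean deviation of the genes of each arm from their mean in the line, in log2 CPM, for each library (points, shaped by the number in the library's name) with the group mean (line). The Hs578T groups (red) do not overlap in either arm, and in each MDA-MB-231 group (blue) the library with a number from 1 to 4 is the highest.

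A test of the lines against each other found an unequal change for 3 genes, all of the ATF4 arm and all with the higher change in Hs578T, where 2.33% of all genes tested had a higher and 1.79% a lower change in Hs578T at the same threshold. The difference of the log2 fold changes, Hs578T minus MDA-MB-231, was 1.01 for SLC7A5 (SE 0.142, adjusted p = 0.000335), 1.24 for DDIT3 (SE 0.2535, adjusted p = 0.00569) and 0.72 for SHMT2 (SE 0.148, adjusted p = 0.00592). For CHAC1 the difference was larger, 1.52, with a log2 fold change of 0.77 in Hs578T and of -0.75 in MDA-MB-231, but its SE of 0.365 left it above the threshold (adjusted p = 0.0157), whereas it was called by DESeq2 (0.000958) and by edgeR without the filter on low counts (2.97e-14). The SE of this difference was 0.375 by DESeq2 and 0.184 without the filter, a fit that understates the spread between libraries. The median difference was 0.55 in the ATF4 arm and 0.20 in the ER arm, beside 0.0167 over all genes tested. In the ER arm 0 differences were called by edgeR, and 6 had an unadjusted p under 0.05, where 24.6% of all genes tested did. DESeq2 called 1, DNAJB11, with the higher change in Hs578T, where it called 3.8% of all genes higher and 3.65% lower. For NUPR1, ALDH1L2, PPP1R15A and VEGFA, called in Hs578T alone, the difference did not pass, so that these 4 genes were not shown to respond differently in the lines. Of these, VEGFA had a called difference in edgeR without the filter (0.57, adjusted p = 0.00374), but not by DESeq2 (0.233). The SLC7A5 difference held under all alternatives, while that of DDIT3 was lost without 8 of the 12 libraries in turn (adjusted p = 0.0120 to 0.0193) and that of SHMT2 without 7 (0.0101 to 0.0207) and without both libraries that stood apart (0.0272). The number of called differences fell to 1 without Hs578T CD44 WT replicate 1 or 2, Hs578T CD44 KO replicate 1, MDA-MB-231 CD44 KO replicate 3 or the MDA-MB-231 CD44 WT library lacking a number, and was 5 without MDA-MB-231 CD44 WT replicate 1.

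Among the sorted CD44 WT controls, the lines differed in 22 of the 45 genes. Between CD44 WT cells, 11 ATF4 arm genes were called higher and 3 lower in Hs578T than in MDA-MB-231, and 6 ER arm genes were called higher and 2 lower, where 32.2% of all genes tested were called higher and 29.4% lower. The shares are thus near or below those of all genes, except for the higher calls of the ATF4 arm. This comparison and those of CD44 KO share the CD44 WT libraries. The line and all else that differs between the cultures cannot be told apart.

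The largest differences were in genes that MDA-MB-231 nearly lacked. ALDH1L2 had 4932 counts over the 3 Hs578T CD44 WT libraries and 4 counts in MDA-MB-231, a ratio after scaling of 1130 with an exact 95% counting interval of 441 to 4151. NUPR1 had 2234 and 38 counts, a ratio of 53.9 (39.15 to 76.4), and STC2 had 4826 and 61 counts, a ratio of 72.5 (56.4 to 95.0). These intervals cover counting error only. PHGDH was at 466 to 570.5 CPM in Hs578T and at 79.0 to 108 CPM in MDA-MB-231 (log2 fold change 2.52, SE 0.121, adjusted p = 6.56e-11), and DDIT4 at 419 to 469 CPM and 62.1 to 161.5 CPM (2.07, SE 0.454, adjusted p = 0.000756). In the opposite direction, PPP1R15A was at 31.65 to 36.03 CPM in Hs578T and at 182 to 192 CPM in MDA-MB-231 (-2.49, SE 0.124, adjusted p = 9.65e-11), and SLC7A1 was at 128 to 143 CPM and 233 to 356 CPM (-1.15, SE 0.142, adjusted p = 2.97e-06). The level of PPP1R15A in Hs578T CD44 KO, 40.3 to 52.4 CPM, thus stayed far below that of MDA-MB-231.

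Per length of exon, the chaperones led the ER arm in both lines. In CD44 WT cells CALR was the highest, at 515.5 CPM per kb in Hs578T and 564 CPM per kb in MDA-MB-231, followed by HSP90B1 at 451.5 and 355 CPM per kb. HSPA5 and CANX came next, at 286 and 276.5 CPM per kb in Hs578T and at 260 and 274 CPM per kb in MDA-MB-231, and their libraries overlapped in both lines. ERN1 was the lowest in both, at 1.62 and 1.51 CPM per kb. In the ATF4 arm PSAT1 was the highest in Hs578T CD44 WT, at 237 CPM per kb, with DDIT4 next at 213 CPM per kb and overlapping it, whereas in MDA-MB-231 CD44 WT it was ATF4, at 184 CPM per kb, overlapping SLC7A5 at 154.5 CPM per kb. In Hs578T CD44 KO DDIT4 led the arm at 388 CPM per kb, above PSAT1 at 288 CPM per kb without overlap. ASNS was the lowest in Hs578T and ALDH1L2 in MDA-MB-231, at 0.705 and 0.0134 CPM per kb.

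**Figure D4:**
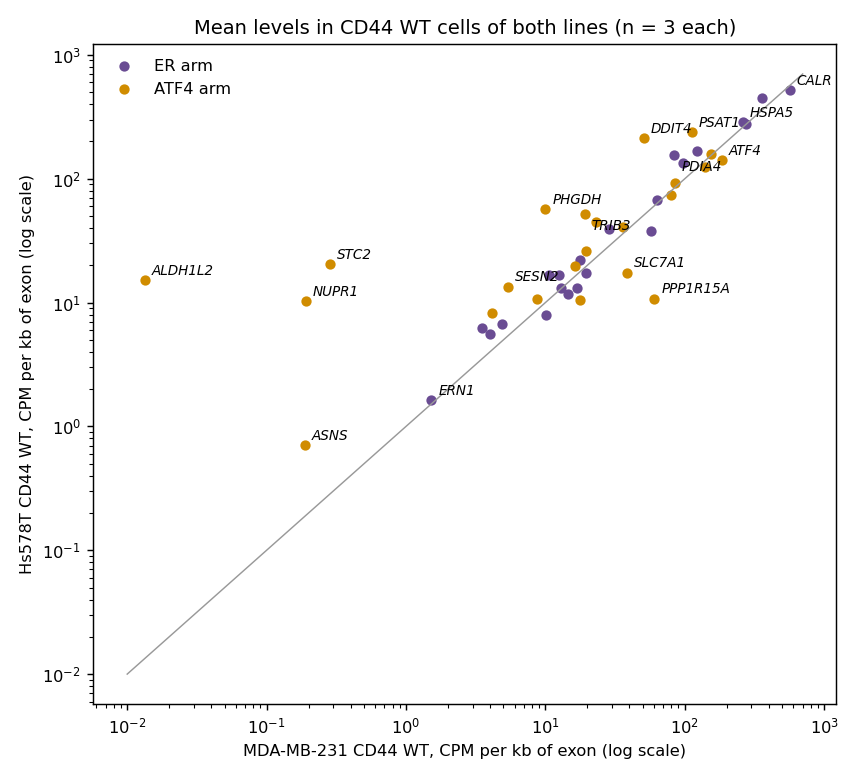
Mean level per kb of exon (log axes) of each gene in CD44 WT cells of MDA-MB-231 (horizontal) and Hs578T (vertical), with 3 libraries each and the line of equal levels. ER arm genes (purple) lie near the line, while ALDH1L2, NUPR1 and STC2 of the ATF4 arm (orange) lie far above it and PPP1R15A below it.

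Further genes of the same pathways were counted from lists of other ER genes and of other ATF4 and integrated stress response genes. In Hs578T, 6 of 36 tested ATF4 and integrated stress response genes were called higher and 0 lower, beside 3.64% and 3.86% of all genes tested, with a median log2 fold change of 0.27. These were the cystathionine lyase CTH (0.91), the cystine carrier SLC7A11 (0.90), the tRNA synthetases WARS1 (0.76) and AARS1 (0.46), the branched-chain transaminase BCAT1 (0.70) and SLC3A2 (0.64). SLC3A2 is the heavy chain that SLC7A5 and SLC7A11 need at the membrane, and its mean went from 315 to 492 CPM in Hs578T, beside 420 and 357 CPM for MDA-MB-231 CD44 WT and KO, with a called difference between the lines of 0.88 (SE 0.134, adjusted p = 0.000702). In MDA-MB-231, NARS1 was called higher (0.63) and GOT1 (-0.40) and JDP2 (-0.97) lower, beside 1.97% and 2.65% of all genes tested, with a median of -0.07 over the 36 genes. The difference between the lines was called for AARS1, GOT1, JDP2 and SLC3A2, each with the higher change in Hs578T, as for 2.33% of all genes tested.

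Of the 30 tested other ER genes, 0 were called in Hs578T by edgeR, and 5 had an unadjusted p under 0.05, beside 27.4% of all genes tested. DESeq2 called 1 higher and 0 lower, where it called 4.67% of all genes higher and 5.14% lower. In MDA-MB-231, 3 were called higher and 0 lower, beside 1.97% and 2.65% of all genes tested. These were CREB3L1 (1.04), a membrane-bound transcription factor of the ER, WFS1 (0.51), an ER calcium regulator, and SELENOS (0.43), a degradation factor of the ER membrane. This list had medians of 0.09 (Hs578T) and 0.08 (MDA-MB-231). The difference between the lines was called for 0 of these genes by edgeR and 0 by DESeq2, with 7 at an unadjusted p under 0.05, beside 24.6% of all genes tested. CREB3L1, WFS1 and SELENOS were therefore not shown to differ in their change between the lines.

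**Figure D5:**
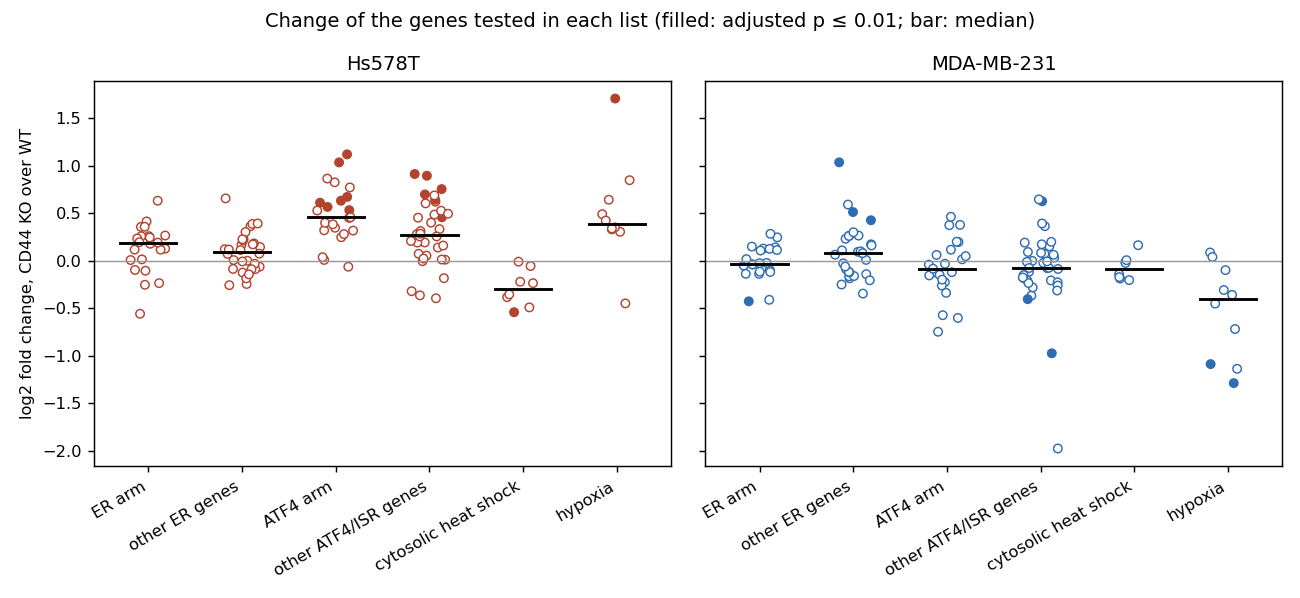
Log2 ratio of KO to WT for the tested genes of each list in Hs578T (left) and MDA-MB-231 (right), with the median as a bar and called genes filled. The medians of the ATF4 arm and of the other ATF4 and integrated stress response genes are 0.46 and 0.27 in Hs578T and -0.08 and -0.07 in MDA-MB-231.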

How the data were processed

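RNA of 12 libraries was aligned to GRCh38 by the authors, who used HISAT2 2.1.0, and fragments were counted per gene by featureCounts 1.6.2 on the GENCODE annotation. They deposited whole-number counts of fragments without normalization, with strand used and fragments on several places or genes left out, and with exonic lengths. The name of 1 MDA-MB-231 CD44 WT library stands in the labels of more than 1 replicate, so it carries a group and no replicate number.

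Tested genes exceeded 1 CPM in 2 or more libraries and had at least 300 nt of exon. The methods describe this limit as keeping shorter genes, and it was read here as a minimum. All 12 libraries entered the fit of edgeR 4.0.16 (R 4.3.3) with TMM factors, 4 group means and the legacy quasi-likelihood test. Log2 CPM used a prior count of 2. The fit was tested on simulated data. Total counts of 10257586 to 19725543 limit the precision for genes near 1 CPM. Exonic length covers all transcripts of a gene, so that levels per kb are approximate.

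The genes and lists were chosen with earlier results of these data known. Per-library values are given for genes called in either line or in the difference and for HSPA5, XBP1, ATF4, DDIT3 and ASNS. Other pathway genes are counted per list, with at most the 10 called genes of largest change named. Alternatives were DESeq2 1.42.0, RLE factors, library size only, no filter, each line alone, the newer quasi-likelihood fit, an adjusted p of 0.05, blocks, each library left out, and promoters without the bases past the start. The ends of the ER arm proteins were not analysed here. Promoters came from RefSeq, and the printed elements were compared with the GRCh38 sequence. A further leukocyte marker is not reported here.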

Additional observations from a re-analysis of the deposited data

Results flagged for a closer look

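Hs578T and MDA-MB-231 changed unequally upon loss of CD44, by the test of the difference itself, in the following genes, given as the log2 fold change in Hs578T minus that in MDA-MB-231. Among the 45 genes these were DDIT3 (1.24), SHMT2 (0.72) and SLC7A5 (1.01). Among the other ATF4 and integrated stress response genes they were AARS1 (0.66), GOT1 (0.61), SLC3A2 (0.88) and JDP2 (1.38), and among the hypoxia genes ADM (1.59). Of the marker lists and the targeted gene, PTPRC (5.66), KDR (3.04) and CD44 (-0.81) were called. Groups of 3 libraries were not tested for single libraries far from the others.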

How the results depend on the processing

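ER arm genes called higher in Hs578T numbered 0 in the fit of all libraries, 2 with DESeq2, 3 without the filter on low counts, 3 with each line alone, 1 with the label numbers as a block and 2 at an adjusted p of 0.05. Those called lower numbered 0 in the fit of all libraries and 1 under each of these alternatives. They also numbered 1 without the 2 libraries that stood apart, an alternative chosen after seeing the data. ER arm genes called lower in MDA-MB-231 numbered 1, and 2 with DESeq2 and at 0.05, but 0 with each line alone, with the replicate block and without the 2 libraries. ATF4 arm genes called higher in Hs578T numbered 7, and 15 without the filter and with the line alone, and 11 at 0.05. In MDA-MB-231, 2 ATF4 arm genes were called higher without the filter, and 2 lower without it and with the label number block, and 1 lower with the replicate block, at 0.05 and without the 2 libraries. The difference between the lines was called for 3 genes, and for 5 with DESeq2 and the label number block, 10 without the filter and 7 at 0.05. At 0.05, in either direction, 2253 of all 15836 genes tested were called in Hs578T, 1518 in MDA-MB-231 and 1670 in the difference. DESeq2 called 4.67% of them higher and 5.14% lower in Hs578T, 3.58% and 3.61% in MDA-MB-231, and 3.8% and 3.65% in the difference. For fits without the filter, with blocks or with libraries left out, the share over all genes was not taken. Their counts therefore stand without a background. The fit without the filter also understates the spread between libraries. Leaving out each library in turn gave 0 to 2 ER arm genes higher and 0 to 1 lower in Hs578T, 0 to 1 lower in MDA-MB-231, an ER arm median of 0.15 to 0.24 in Hs578T, 3 to 8 ATF4 arm genes higher in Hs578T, 0 to 1 higher and 0 to 1 lower in MDA-MB-231, and 1 to 5 differences. The ATF4 arm count in MDA-MB-231 was 1 higher without CD44 KO replicate 1 and 1 lower without CD44 KO replicate 2. The count between CD44 WT cells stayed within 19 to 29 of 45. RLE factors, library size only and the newer fit moved no count by over 1.5 times. In MDA-MB-231 the sign, never past the threshold, turned for HSPA5 (-0.33 to 0.14 over all libraries left out, with 0.14 without the library lacking a number, 0.14 without CD44 KO replicate 1, 0.04 without replicate 3), for DDIT3 (-0.37 to 0.050, the latter without the library lacking a number), for XBP1 (-0.023 to 0.31, the former without CD44 KO replicate 2) and for ASNS (-0.27 to 0.59, with -0.021 without CD44 WT replicate 3 and -0.27 without CD44 KO replicate 2). The medians of both arms in MDA-MB-231 ranged over 0, from -0.10 to 0.11 and from -0.17 to 0.05. The causes were not tested. Depth limits genes near or under 1 CPM, such as ASNS, NUPR1, STC2 and ALDH1L2 in MDA-MB-231.

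Correlations between libraries of the same replicate number were -0.0957 to 0.0222 in Hs578T and 0.00793 and 0.164 in MDA-MB-231, not over 0.1 in every pair, so they were taken to share only a number. The replicate block, without the library lacking a number, called 10 of the 45 genes in Hs578T, 1 in MDA-MB-231 and 4 in the difference, where the share over all genes was not taken. It called CHAC1 lower in MDA-MB-231 (log2 fold change -0.91, adjusted p = 0.00667) and its difference (0.000699). The VLDLR difference (1.21, adjusted p = 0.00403) was called too, while PDIA6 in MDA-MB-231 (0.0442) and the SHMT2 difference (0.0152) did not pass. With the label number block, CHAC1 (-0.81, adjusted p = 0.00175) and VLDLR (-0.65, 0.00772) were called lower in MDA-MB-231. The differences of CHAC1 (0.000204) and VLDLR (1.12, 0.00208) were called, while PPP1R15A in Hs578T did not pass (0.0134). Without the filter the VLDLR difference was also called, but not by DESeq2. These adjusted p values are from edgeR's quasi-likelihood test. Numbers in the libraries' names, taken in sets of 4, gave correlations of 0.0315 to 0.134 in Hs578T and 0.00793 to 0.164 in MDA-MB-231. Each set held a library of each of the 4 groups, and the labels do not say what a set stands for. Each Hs578T library correlated best with its own set, which is a hint only, and this did not hold for every MDA-MB-231 library. With promoters limited to the bases before the start, CARE was left in 3 genes of the ATF4 arm, and the other motif counts did not move.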

Other observations

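Hypoxia genes and heat shock genes were counted as neighbouring stress responses, since VEGFA and DDIT4 are shared with hypoxia. Of 10 hypoxia genes, 1 was called higher in Hs578T, the carbonic anhydrase CA9 (8.82 to 28.7 CPM, log2 fold change 1.71, SE 0.3775, adjusted p = 0.00631, edgeR's quasi-likelihood test), and 9 had a log2 fold change above 0, with a median of 0.39. Over all genes tested, 3.64% were called higher and 3.86% lower in Hs578T, and 1.97% and 2.65% in MDA-MB-231. In MDA-MB-231, 2 were called lower, the peptide hormone ADM (135 to 55.2 CPM, log2 fold change -1.29) and the prolyl hydroxylase EGLN3 (14.1 to 6.49 CPM, -1.09), with a median of -0.40. Of 8 tested heat shock genes, among them the mitochondrial chaperonins HSPD1 and HSPE1, 1 was called lower in Hs578T, HSPH1 (284 to 195.5 CPM, log2 fold change -0.54). All 8 had a log2 fold change below 0 there, with a median of -0.29. In MDA-MB-231, 0 of them were called by edgeR and 0 by DESeq2, 1 had an unadjusted p under 0.05, beside 23.4% of all genes tested, and the median was -0.08. The near-identical genes HSPA1A and HSPA1B had 0 counts in all libraries, where fragments that fit several places were not counted.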
